A study of Mus musculus with 8 samples.

Results

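A set of 8 transcription factor genes that mark or build the liver was followed in mouse cells: Cebpa, Cebpb and Creb3l3 of the basic leucine zipper class, the homeobox genes Onecut1, Prox1 and Hhex, and the zinc finger genes Gata4 and Gata6. They were chosen as a set of liver-enriched factors outside the Hnf4a and Foxa genes, and each was read from the probe set that carries only its symbol and has the highest mean over the arrays, which gave 8 genes of 17097 on the array, with 15 probe sets in all. Expression was measured on 8 single-channel arrays. Induced hepatocyte-like cells (iHeps) gave 3 arrays, 1 for each of 3 lines at passage 10. The lines grew from fibroblasts after transduction with retroviruses for Hnf4a and Foxa3 (line 4a3), for Hnf4a, Foxa3, c-Myc and Klf4 (line 4a3CK), or for Hnf4a, Foxa1, c-Myc and Klf4 (line 4a1CK). They were kept in a hepatocyte medium with dexamethasone, nicotinamide, FGF4, HGF and EGF. Primary hepatocytes (PH) of male C57/B6 mice aged 8 to 10 weeks, isolated by perfusion with collagenase and then cultured in the same kind of medium, gave 3 arrays, the unnumbered one being called PH 3. Mouse embryonic fibroblasts (MEFs) of C57/B6 embryos at embryonic day 13.5, with head and internal organs removed, gave 2 arrays. None of the 8 genes was among the transduced factors. Each line is 1 array, so differences between lines carry no replicate. Nothing says that the PH or MEF arrays came from separate animals or cultures, so their array-to-array spread may be technical. The spread of the iHep group is that between 3 lines made with different factors. All 3 comparisons share 1 estimate of the spread, so each p-value takes in both kinds.

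Hepatocyte identity rests on a network of transcription factors that bind each other's genes and those of plasma proteins and metabolic enzymes. Hhex and Prox1 are needed early, when the liver bud forms and hepatoblasts move out of it, and Onecut1 (HNF6) acts in the choice between hepatocyte and bile duct cell. Gata4 and Gata6 open chromatin in the early endoderm, Cebpa drives energy metabolism in mature hepatocytes, Cebpb acts in the acute phase response and regeneration, and Creb3l3 (CREBH) is a membrane-bound factor that is cut and released under stress or fasting.

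The promoters of the 4 genes that separated PH from the lines, and of Cebpb, which separated the lines from each other, are shown here as the 250 bases before the annotated start, 5′ to 3′ on the strand of the gene, from RefSeq on build GRCm38.p6. Capitals mark matches to the motifs named in the next paragraph.
Hhex, chr19:37434591-37434840, plus strand: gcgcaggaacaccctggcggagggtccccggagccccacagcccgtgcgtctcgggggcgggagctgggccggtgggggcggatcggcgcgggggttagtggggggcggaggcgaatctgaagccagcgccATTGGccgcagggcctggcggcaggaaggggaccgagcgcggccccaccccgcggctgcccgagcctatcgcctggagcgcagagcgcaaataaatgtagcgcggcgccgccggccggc
Onecut1, chr9:74861671-74861920, plus strand: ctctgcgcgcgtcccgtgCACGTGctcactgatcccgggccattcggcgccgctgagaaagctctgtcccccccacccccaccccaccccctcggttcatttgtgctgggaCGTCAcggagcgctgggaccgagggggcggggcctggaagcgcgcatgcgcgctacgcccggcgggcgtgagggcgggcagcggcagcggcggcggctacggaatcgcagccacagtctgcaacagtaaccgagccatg
Prox1, chr1:190170828-190171077, minus strand: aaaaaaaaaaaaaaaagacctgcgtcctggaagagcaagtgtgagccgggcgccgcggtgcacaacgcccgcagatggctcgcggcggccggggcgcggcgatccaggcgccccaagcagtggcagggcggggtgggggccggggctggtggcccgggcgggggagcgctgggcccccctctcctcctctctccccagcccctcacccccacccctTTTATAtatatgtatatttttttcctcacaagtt
Cebpa, chr7:35119043-35119292, plus strand: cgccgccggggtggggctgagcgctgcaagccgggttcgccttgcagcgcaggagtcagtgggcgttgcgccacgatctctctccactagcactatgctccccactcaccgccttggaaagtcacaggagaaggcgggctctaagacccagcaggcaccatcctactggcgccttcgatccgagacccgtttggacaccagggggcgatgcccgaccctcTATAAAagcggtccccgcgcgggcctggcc
Cebpb, chr2:167688665-167688914, plus strand: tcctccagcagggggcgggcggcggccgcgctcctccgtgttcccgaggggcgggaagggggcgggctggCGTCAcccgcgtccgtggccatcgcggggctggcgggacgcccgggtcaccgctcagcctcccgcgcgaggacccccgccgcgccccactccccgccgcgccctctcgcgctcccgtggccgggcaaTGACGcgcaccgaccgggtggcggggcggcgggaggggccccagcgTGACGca

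On GRCm38.p6 the genes span chr19:37434841-37440731 (Hhex), chr9:74861921-74889648 (Onecut1), chr1:190118035-190170827 (Prox1), chr7:35119293-35121928 (Cebpa) and chr2:167688915-167690432 (Cebpb), and Creb3l3 lies at chr10:81084329-81098872 and Gata4 at chr14:63198914-63271712. Promoter entries were used for 6 of the 8 genes, 8 entries in all, and none was used for Gata4 or Gata6. Motifs were searched on both strands and no match overlapped another. Among the motifs of the transduced factors, the HNF4A core CAAAGTCC (1.2% of 32851 promoters of this length), the FOXA core TGTTTAC (3.17%) and the KLF core CCACACCC (3.20%) matched no entry, and the Myc E-box CACGTG (6.02%) matched that of Onecut1 at position -232 from the start. Of the motifs bound by the factors themselves, the GATA core AGATAA (9.99%) matched 1 Creb3l3 entry, while the C/EBP motif TTGCNNAA (9.56%) and the HNF6 core ATTGAT (6.72%) matched none. The cyclic AMP response core TGACG (17.8%) matched 3 times in Cebpb, at -180, -53 and -7, and once each in Onecut1 and a Creb3l3 entry. A TATA box (TATAAA, 12.4%) lay at -30 in Cebpa and, on the opposite strand, at -34 in Prox1. A CCAAT box (CCAAT, 33.8%) lay on the opposite strand at -119 in Hhex and at -95 in a Creb3l3 entry. A match describes letters in this window and not binding. The 5 printed promoters held from 64.8% to 81.6% G and C, against a median of 52.4% over all promoters. The entries not printed held less, at 56% for another Prox1 entry, which had no match, and 56.8% and 50.8% for Creb3l3.

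The arrays did not all read at the same level. Their median log2 signal ranged from 4.23 to 4.45, apart from PH 3 at 5.06, and 93.0% of genes were higher in PH 3 than in PH 1. PH 1 and PH 2 were close to each other, with an SD of their differences over genes of 0.159, against 0.570 for MEF 1 and MEF 2. The highest of the 23 nonspecific control probe sets, which match no mouse transcript, reached 5.79 to 6.19 in the lines, 4.96, 5.03 and 6.82 in PH 1, 2 and 3, and 5.07 and 5.24 in MEF 1 and 2. A reading below it is called within background here. Hybridization controls averaged 9.28 to 9.47 in the lines and PH 3, and 8.41 to 8.87 in PH 1, PH 2 and both MEFs. The part of these levels in the results was not tested. Of 10 hepatocyte markers, 8 rose in PH against MEF and 1, Apoa1, rose in the lines against MEF. Their summed linear signal was 13836.5 in 4a3, 12005 in 4a3CK and 1513 in 4a1CK, against 20908 to 24255 in PH and 178 to 190 in MEFs. The lines therefore differed widely from each other. Apoa1 read 12.82, 12.66 and 10.39 in 4a3, 4a3CK and 4a1CK, and Fgb 12.21, 10.92 and 3.36. Of 9 fibroblast markers, 8 fell in PH and 7 fell in the lines. To pass a comparison, a gene needed a log2 difference of 1 or more in either direction and an adjusted p below 0.05 in limma's moderated test, with Benjamini-Hochberg adjustment over all 17097 genes. Array signal comes from the whole culture, so fewer cells of a type and less RNA per cell cannot be told apart.

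Primary hepatocytes had more RNA than fibroblasts for 5 of the 8 genes: Hhex, Onecut1, Prox1, Cebpa and Gata6. Cebpb, Creb3l3 and Gata4 did not pass, and no gene of the 8 fell. In this comparison 5.85% of all genes passed, 3.37% as higher and 2.47% as lower in PH. The median difference of the 8 genes was 1.95 on the log2 scale, against 0.25 over all genes. All genes that passed numbered 577 higher and 423 lower, or 520 and 619 after quantile normalization, under which the same count of 5 of the 8 genes passed.

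The lines, in contrast, stood close to fibroblasts for most of these genes. Against MEFs only Gata6 passed, as higher in the lines, and 7 of 8 did not pass (2 of 8 had an unadjusted p under 0.05). In that comparison 6.45% of all genes passed, 1.98% as higher and 4.47% as lower, and the median difference was 0.52 for the 8 genes and 0.16 for all genes. Against PH, 4 of the 8 genes fell in the lines, Hhex, Onecut1, Prox1 and Cebpa, none rose, and 4 did not pass. There 7.13% of all genes passed, 1.49% as higher and 5.64% as lower in the lines, with median differences of -1.32 for the 8 genes and -0.09 for all genes. The genes that passed split into 339 higher and 764 lower against MEF, or 692 and 914 after quantile normalization, and into 254 and 965 against PH, or 607 and 736 after it. The comparisons share arrays with each other.

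Counted without a test, 7 of the 8 genes read higher in every PH array than in every MEF array, Cebpb being the exception. Over all genes 38% did not overlap in this way, 30.1% being higher and 7.9% lower in PH. In the lines 5 of the 8 lay above both MEFs, Hhex, Onecut1, Cebpa, Gata4 and Gata6, where 60.9% of all genes did not overlap, 42.6% higher and 18.4% lower. Against PH 6 of the 8 lay below every hepatocyte array, all but Cebpb and Gata6, where 26.3% of all genes did not overlap, 5.04% higher and 21.3% lower. For iHep against MEF the share of the 8 genes was near that of all genes.

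The arrays were submitted in 2 sets, the first with the 3 lines, PH 3 and MEF 2, the second with PH 1, PH 2 and MEF 1. The PH minus MEF difference was 5.59 in the first set and 5.75 in the second for Hhex, 2.96 and 3.36 for Onecut1, and 2.33 and 2.16 for Cebpa. It was 3.86 and 2.63 for Prox1, and 1.68 and 1.93 for Gata6. Within the first set, which alone held lines, iHep minus PH was -4.93 for Hhex, -2.72 for Onecut1, -3.29 for Prox1 and -1.84 for Cebpa, and iHep minus MEF was 1.44 for Gata6. Each of these differences kept the direction found over all arrays, as it had to, since the groups compared did not overlap for these genes. Only their sizes can be compared between sets. For Cebpb, whose groups overlapped, PH minus MEF was 1.14 in the first set and -0.29 in the second.

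**Figure D1:**
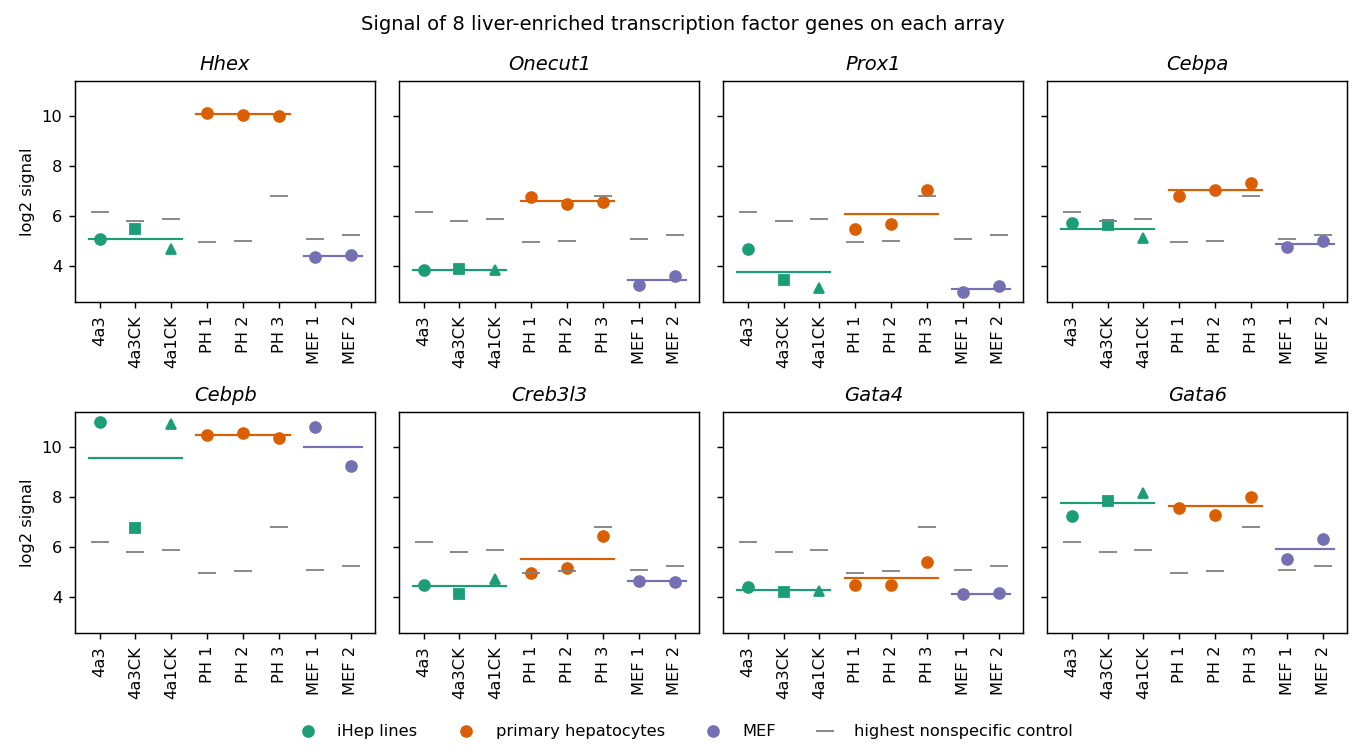
Log2 signal (vertical axis) of each of the 8 genes on each array (horizontal axis), with iHep lines (circle 4a3, square 4a3CK, triangle 4a1CK), primary hepatocytes and MEFs in separate colours, horizontal lines for group means and grey dashes for the highest nonspecific control of each array. Hhex, Onecut1, Prox1 and Cebpa are high in primary hepatocytes alone, Gata6 is high in lines and hepatocytes, and Cebpb is low in 4a3CK.

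**Figure D2:**
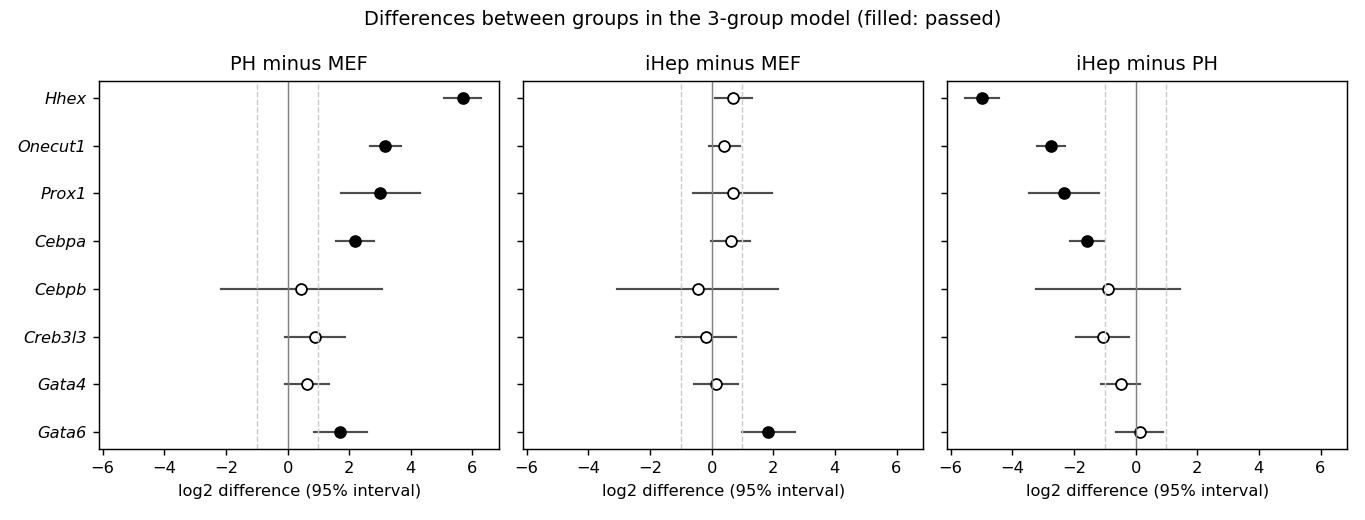
Log2 difference between groups with its 95% interval from the 3-group limma model (horizontal axis) for each gene (vertical axis), in 3 panels, one for each comparison. Filled points passed, dashed lines mark a log2 difference of 1 in either direction. Filled points number 5 for PH minus MEF, 1 for iHep minus MEF and 4 for iHep minus PH.

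Hhex, a homeobox factor needed for outgrowth of the liver bud, showed the widest gap. Its log2 signal was 5.09 in 4a3, 5.49 in 4a3CK and 4.71 in 4a1CK, against 10.15, 10.06 and 10.03 in PH 1, 2 and 3 and 4.35 and 4.44 in MEF 1 and 2. All 3 lines read above both MEFs and about 5 log2 units below every PH array, and both lines and MEFs were within background. PH exceeded MEF by 5.68 ± 0.26 (SE, n = 3 and 2; limma adjusted p = 1.66e-05), a 51.3-fold difference in signal. The lines were below PH by a log2 difference of -4.98 ± 0.24 (n = 3 each; limma adjusted p = 2.15e-05), 31.6-fold less signal. The difference of the lines from MEF was 0.70 ± 0.26 with a 95% interval from 0.10 to 1.30 and did not pass (limma adjusted p = 0.174). Because the low readings lie within background, the folds describe signal and not transcript number.

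Onecut1, the cut-homeodomain factor HNF6, had the tightest readings among the lines. They read 3.85 (4a3), 3.89 (4a3CK) and 3.86 (4a1CK), against 6.77, 6.49 and 6.59 in PH 1, 2 and 3 and 3.27 and 3.63 in MEF 1 and 2. No line reached the value of 4.09 below which 40% of all readings lay, and neither did a MEF array, whereas all 3 PH arrays passed it, and PH 1 and 2, but not PH 3, also exceeded their highest nonspecific control. PH exceeded MEF by 3.17 ± 0.22 (limma adjusted p = 0.000101), an 8.99-fold difference, and the lines differed from PH by -2.75 ± 0.20 (limma adjusted p = 0.00014), 6.73-fold less signal. Against MEF the lines differed by 0.42, with an interval from -0.08 to 0.92 (limma adjusted p = 0.326). A second Onecut1 probe set read 3.50, 3.57 and 3.47 in 4a3, 4a3CK and 4a1CK, 5.47, 5.39 and 6.63 in PH, and 3.39 and 3.41 in MEFs, again highest in PH.

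Prox1, a prospero-type homeobox factor of hepatoblasts, had probe sets that differed widely in the PH minus MEF difference. The probe set used read 4.67 in 4a3, 3.46 in 4a3CK and 3.14 in 4a1CK, against 5.49, 5.68 and 7.05 in PH 1, 2 and 3 and 2.95 and 3.19 in MEF 1 and 2. All lines and MEFs were within background, and all 3 PH arrays were above it. PH exceeded MEF by 3.0 ± 0.56 (limma adjusted p = 0.015), and the lines differed from PH by -2.32 ± 0.50 (limma adjusted p = 0.0275). Averaged over its 3 probe sets the PH minus MEF difference was 1.53 (adjusted p = 0.0188) and that of iHep minus PH was -1.27 (adjusted p = 0.0267). The dimmest probe set read from 3.08 to 3.89 on all arrays, with a PH minus MEF difference of 0.34. The call against MEF was lost without MEF 1 (adjusted p = 0.108) or MEF 2 (adjusted p = 0.0763). The call of the lines against PH was lost without 4a3CK (adjusted p = 0.0527), 4a1CK (adjusted p = 0.0745) or PH 2 (adjusted p = 0.0619), and with PH 1 and PH 2 averaged (adjusted p = 0.0536).

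Cebpa, the C/EBP factor of mature hepatocytes, was lower in the lines than in PH. It read 5.71 in 4a3, 5.66 in 4a3CK and 5.15 in 4a1CK, against 6.82, 7.05 and 7.34 in PH 1, 2 and 3 and 4.77 and 5.01 in MEF 1 and 2. The 3 groups did not overlap, but lines and MEFs were all within background, where no order between them can be read. PH exceeded MEF by 2.18 ± 0.27 (limma adjusted p = 0.00202), a 4.53-fold difference, and the lines differed from PH by -1.57 ± 0.24 (limma adjusted p = 0.00697), 2.96-fold less signal. The lines differed from MEF by 0.61 with an interval from -0.0042 to 1.23 and did not pass (limma adjusted p = 0.243). The calls of Hhex, Onecut1 and Cebpa held in 22 of 22 alternatives for PH against MEF and in 20 of 20 for iHep against PH. Not all of these were distinct, and the choice of probe set cannot change the readings of Hhex and Cebpa, which have a single probe set.

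Hhex and Prox1 are also made by endothelial cells, and Cebpa by macrophages and fat cells, so markers of those cells were read beside them. Of 10 endothelial markers, 0 passed in any of the 3 comparisons in limma, with an unadjusted p under 0.05 for 0 in PH against MEF, 2 in the lines against MEF and 0 in the lines against PH. Their summed linear signal was 200 to 214 in the lines, 169 to 330 in PH and 155 to 193 in MEFs, and Pecam1 read from 3.39 to 4.17 on all arrays. Of 9 macrophage markers, 1 rose in PH against MEF, the endotoxin receptor Cd14 (3.59), and 2 fell, Lyz2 (-4.18) and Adgre1 (-1.45). In the lines both fell against MEF, Lyz2 by a difference of -5.40 and Adgre1 of -1.91, and Lyz2 fell against PH (-1.22, limma adjusted p = 0.0351). The summed signal of that list was 252 to 663 in the lines, 759 to 1390 in PH and 651 to 931 in MEFs. Of 4 fat cell markers measured, 0 passed in limma in any comparison, with an unadjusted p under 0.05 for 0 in PH against MEF, 1 in the lines against MEF and 1 in the lines against PH. Their summed signal was 136 to 262 in the lines, 53.7 to 218 in PH and 67.4 to 536 in MEFs. The part of these cells in the Hhex, Prox1 and Cebpa results was not tested.

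Gata6, a GATA factor of early endoderm, heart and gut, was the gene of the 8 that the lines and PH shared at a raised level. It read 7.25 in 4a3, 7.86 in 4a3CK and 8.19 in 4a1CK, against 7.58, 7.31 and 8.01 in PH 1, 2 and 3 and 5.51 and 6.33 in MEF 1 and 2. Lines and PH overlapped, and every one of their arrays lay above both MEFs. The lines exceeded MEF by 1.85 ± 0.37 (SE, n = 3 and 2; limma adjusted p = 0.0235), a 3.59-fold difference, and PH exceeded MEF by 1.71 ± 0.37 (limma adjusted p = 0.0314), a 3.28-fold difference. Between lines and PH the difference was 0.13 with a 95% interval from -0.63 to 0.90, so a difference of up to that size in either direction cannot be set aside. A second Gata6 probe set read 5.34, 5.49 and 5.84 in 4a3, 4a3CK and 4a1CK, 4.94, 4.91 and 6.05 in PH, and 4.09 and 4.15 in MEFs, all within background.

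The Gata6 calls were less firm than those of Hhex. The call of lines against MEF was lost without 4a1CK (adjusted p = 0.0627) or MEF 1 (1.44, adjusted p = 0.185). The call of PH against MEF was lost without MEF 1 (1.31, adjusted p = 0.252), PH 1 (adjusted p = 0.0866), PH 2 (adjusted p = 0.0536) or PH 3 (adjusted p = 0.0863), and with PH 1 and PH 2 averaged (adjusted p = 0.0673). The summed linear signal of 9 gut markers was 2051 in 4a3, 11155 in 4a3CK and 825 in 4a1CK, against 308 to 461 in PH and 256 to 269 in MEFs. The sum in 4a3CK rested on few genes. Named after their values were seen, these were Tff1 at 12.22, Tff3 at 11.54, Gkn1 at 10.58 and Lgals4 at 10.31. Of the 9 genes, 1 passed in the lines against MEF, villin (Vil1, 3.22), which read 6.27, 6.02 and 8.99 in 4a3, 4a3CK and 4a1CK. Against MEF 4 had an unadjusted p under 0.05, and against PH 0 passed in limma (4 at an unadjusted p under 0.05). Of 6 heart muscle markers 0 passed in lines against MEF in limma (2 at an unadjusted p under 0.05). Their sums were 95.1 to 161 in the lines, 70.2 to 135 in PH and 77.1 to 269 in MEFs. Against PH 1 passed as higher in the lines, Tnnt2 (2.16, limma adjusted p = 0.0387). Tnnt2 read 6.10, 4.69 and 6.51 in 4a3, 4a3CK and 4a1CK, 3.45 to 3.70 in PH, and 3.12 and 4.59 in MEF 1 and 2. The part of gut and heart cells in the Gata6 result was not tested.

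Gata4, the partner of Gata6 in endoderm and heart, read within background on every array. It was 4.42, 4.20 and 4.24 in 4a3, 4a3CK and 4a1CK, against 4.47, 4.46 and 5.39 in PH 1, 2 and 3 and 4.12 and 4.15 in MEF 1 and 2. Only PH 3, whose whole array was raised, stood apart. After subtracting array medians Gata4 in PH 3 was at -0.41, beside -0.46 and -0.48 in PH 1 and 2 and -0.60 to -0.86 in the lines. No comparison passed, with differences of 0.64 for PH minus MEF (limma adjusted p = 0.373), 0.15 for iHep minus MEF (adjusted p = 0.813) and -0.49 for iHep minus PH (adjusted p = 0.388). A second probe set, also within background, read 4.42, 4.33 and 4.37 in 4a3, 4a3CK and 4a1CK, 3.68, 3.62 and 4.43 in PH, and 3.62 and 3.63 in MEFs, so that the lines lay above both MEFs there. Over the alternatives iHep minus PH for Gata4 ranged from -0.85 to -0.011, always short of the log2 difference of 1. At these readings a change in Gata4 may go undetected.

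Creb3l3, the membrane-bound factor CREBH of hepatocytes and gut, passed in no comparison. It read 4.50 in 4a3, 4.14 in 4a3CK and 4.73 in 4a1CK, against 4.95, 5.18 and 6.43 in PH 1, 2 and 3 and 4.66 and 4.59 in MEF 1 and 2. All PH arrays lay above all lines and both MEFs, but only PH 2 rose above background. PH minus MEF was 0.90 with an interval from -0.07 to 1.87 (limma adjusted p = 0.356), or 0.44 without PH 3, and iHep minus PH was -1.07 with an interval from -1.93 to -0.20 (adjusted p = 0.141), or -0.61 without PH 3. After quantile normalization it was -0.90 (adjusted p = 0.0341) and after subtraction of array medians -0.87 (adjusted p = 0.0378), both short of the log2 difference of 1. The lines differed from MEF by -0.17 (adjusted p = 0.844).

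Cebpb, the C/EBP factor of the acute phase response, was bright in every cell type and broke the iHep group apart. It read 11.02 in 4a3, 6.79 in 4a3CK and 10.93 in 4a1CK, against 10.49, 10.56 and 10.39 in PH 1, 2 and 3 and 10.81 and 9.25 in MEF 1 and 2. Lines 4a3 and 4a1CK read above every PH and MEF array, and 4a3CK read below all 7 other arrays, though still above its highest nonspecific control of 5.79. The SD of the lines was 2.42, against 0.083 for PH and 1.10 for MEFs. No comparison of groups passed, with 0.45 for PH minus MEF (limma adjusted p = 0.83), -0.45 for iHep minus MEF (adjusted p = 0.847) and -0.90 for iHep minus PH (adjusted p = 0.743). Their intervals spanned -2.17 to 3.06, -3.07 to 2.16 and -3.24 to 1.44, so differences of several fold in either direction remain possible. The groups share their estimate of the spread, which takes in the SD of the lines. For PH minus MEF the SE was 1.14 in that fit and 0.45 with PH and MEF fitted alone (limma adjusted p = 0.786). Without 4a3CK the differences were 0.94 for iHep minus MEF (adjusted p = 0.307) and 0.49 for iHep minus PH (adjusted p = 0.667).

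Between single lines Cebpb was the one gene of the 8 past a 4-fold difference, a log2 difference of 2. Line 4a3CK, which has c-Myc and Klf4 added to the factors of 4a3, was below 4a3 by a log2 difference of -4.23, 18.8-fold less signal, the 18th lowest difference of 17097 genes between these arrays. Line 4a1CK, which carries Foxa1 in place of Foxa3, exceeded 4a3CK by 4.14, 17.7-fold, the 32nd highest difference of that pair. Past 4-fold lay 2.23% of all genes for 4a3CK minus 4a3 (0.871% lower and 1.36% higher) and 3.16% for 4a1CK minus 4a3CK (1.8% lower and 1.37% higher). For 4a1CK minus 4a3, where none of the 8 genes passed 4-fold, it was 1.32% (0.684% lower and 0.638% higher). Both lines with c-Myc and Klf4 therefore differed from each other in Cebpb, while 4a1CK and 4a3 differed by -0.09. A second probe set gave the same pattern, at 8.94 in 4a3, 4.46 in 4a3CK and 8.99 in 4a1CK, and the dimmest one read 5.64, 5.07 and 5.51. Line 4a3CK also stood apart in the summed signal of gut markers, 11155 against 2051 in 4a3 and 825 in 4a1CK, with Cdx2, a homeobox factor of the intestine, at 9.01 against 5.61 and 4.97. The part of this in the Cebpb reading was not tested. With 1 array for each line these are differences between arrays and have no test.

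**Figure D3:**
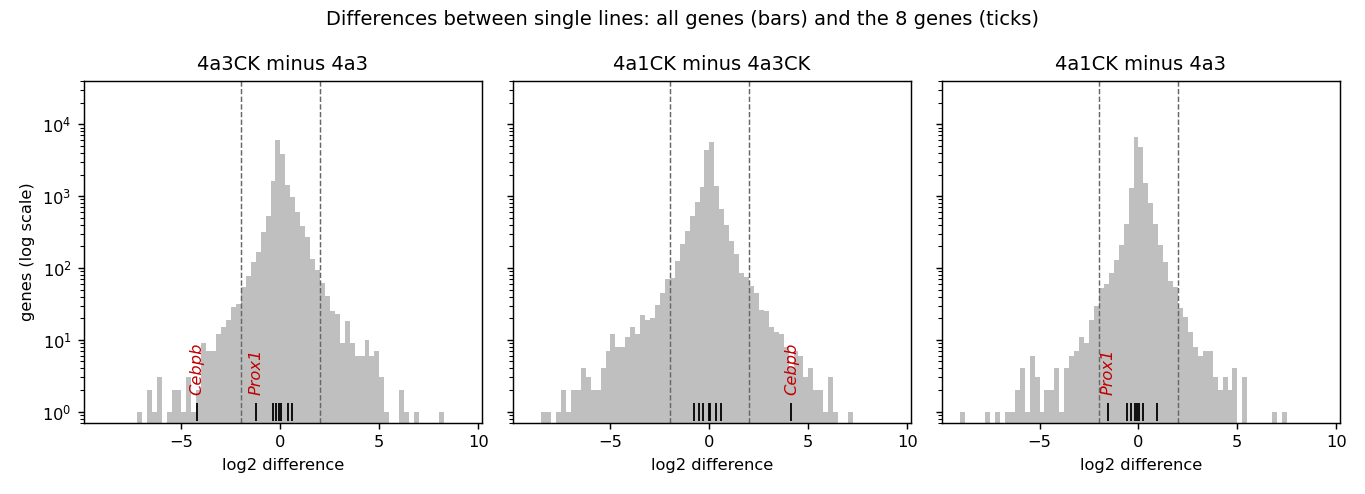
Number of genes (vertical axis, log scale) by log2 difference between single lines (horizontal axis), in 3 panels, with ticks for the 8 genes and dashed lines at a 4-fold difference. Cebpb lies at -4.23 for 4a3CK minus 4a3 and 4.14 for 4a1CK minus 4a3CK, and Prox1, within background in all lines, at -1.22 and -1.54 in the panels where it is named.

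The other 7 genes varied less among the lines. Prox1 differed from 4a3 by -1.22 in 4a3CK and by -1.54 in 4a1CK, with all 3 readings within background, where no order can be read. The line readings of Hhex, Onecut1, Cebpa, Gata4 and Creb3l3 were also within background. Gata6 differed from 4a3 by 0.61 in 4a3CK and by 0.94 in 4a1CK. Hhex was at 0.40 in 4a3CK minus 4a3 and at -0.78 in 4a1CK minus 4a3CK, and Cebpa at -0.05 and -0.52. Onecut1 moved by no more than 0.05 in any pair, and the widest line difference was -0.21 for Gata4 and 0.59 for Creb3l3. The closest pair of the 8 genes over the arrays was Hhex and Onecut1 (Pearson r = 0.995 over 8 arrays), which mostly restates the gap between 3 PH arrays and the rest. Cebpb had the weakest likeness to the others, with r from -0.14 to 0.39.

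**Figure D4:**
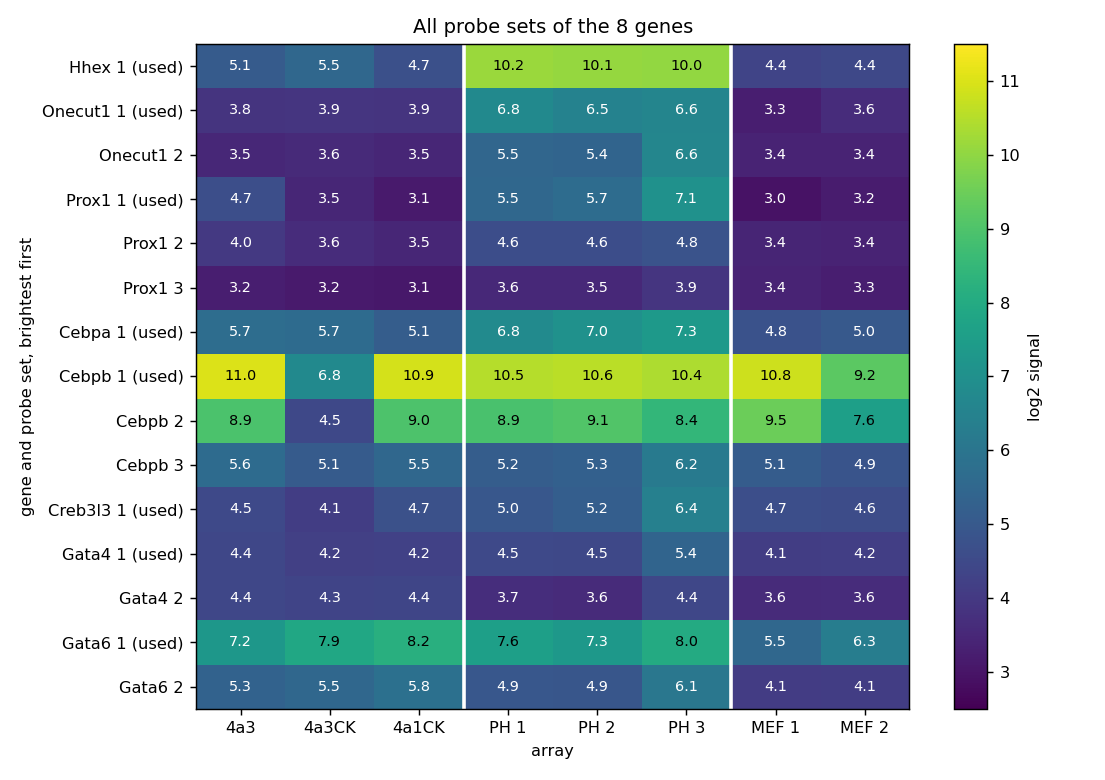
Log2 signal (colour and printed value) of all 15 probe sets of the 8 genes (rows, brightest first within a gene) on the 8 arrays (columns: iHep lines, primary hepatocytes, MEFs). Both Onecut1 probe sets are highest in primary hepatocytes, those of Prox1 differ in size, and 2 of the 3 Cebpb probe sets are low in 4a3CK.

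Within the fibroblast pair Cebpb was 1.56 higher in MEF 1 than in MEF 2. Of 22 C/EBP target genes, 4 were higher in MEF 1 by a log2 difference of 1 or more and 0 were higher in MEF 2 by as much, beside 3.56% of all genes higher in MEF 1. Named after their values were seen, Il6 read 9.59 and 4.55 in MEF 1 and 2, Saa3 12.12 and 3.78, Lcn2 9.99 and 3.25, and Hp 9.37 and 3.27. Of the 22 targets, 2 were lower in 4a3CK than in both other lines by 1 or more, beside 1.88% of all genes. Lcn2 read 4.05 in 4a3CK, against 10.37 in 4a3 and 8.62 in 4a1CK, and Saa3 read 7.56, against 10.03 and 9.39. Hp read 11.76, 6.56 and 4.10 in 4a3, 4a3CK and 4a1CK, a different order. Cebpd, a C/EBP paralog induced in the acute phase, read 10.37 and 8.26 in MEF 1 and 2 but 10.53, 9.58 and 9.54 in 4a3, 4a3CK and 4a1CK. Cebpd therefore shared the gap between the MEFs, and in the lines 4a3CK and 4a1CK read alike.

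Among paralogs and partners, the second Onecut gene behaved like the first. Onecut2 read 5.21, 4.88 and 4.79 in 4a3, 4a3CK and 4a1CK, against 6.57, 6.44 and 6.51 in PH and 4.42 and 4.40 in MEFs. It rose by 2.10 ± 0.22 in PH against MEF (limma adjusted p = 0.000783), and the lines were at -1.55 ± 0.20 against PH (adjusted p = 0.00273). Cux1, a related cut-homeodomain factor, was higher in the lines than in PH by 1.16 (adjusted p = 0.028), and Cux2 and Onecut3 passed in no comparison. Zfpm1 (FOG1), a cofactor that binds GATA factors, rose by 1.63 in PH against MEF (adjusted p = 0.00352), and Zfpm2 (FOG2) read 4.64, 6.56 and 4.41 in 4a3, 4a3CK and 4a1CK, 4.78 to 5.30 in PH and 7.70 and 7.10 in MEFs without passing.

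Gata1, Gata2 and Gata3 passed in no comparison, so of the 5 GATA factors measured Gata6 alone did. Gata1 and Gata3, like Gata4, read within background on every array, where a change may go undetected. In the C/EBP family Cebpa alone passed of 5 measured. Cebpd, Cebpg and the stress factor Ddit3 (CHOP) did not, with PH minus MEF differences of 0.64, 0.86 and -0.39. Prox2 did not pass either. Creb3l1, the family member tied to collagen secretion, fell in PH (-1.39, adjusted p = 0.0292) and in the lines (-1.60, adjusted p = 0.0172) against MEF. Creb3 was lower in the lines than in PH (-1.61, adjusted p = 0.0074), at 7.72, 8.31 and 7.43 in 4a3, 4a3CK and 4a1CK, against 9.35, 9.38 and 9.57 in PH 1, 2 and 3. Creb3l2 and Creb3l4 passed in no comparison.

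Other liver factors followed a like split. Of 18 measured, 5 rose and 1 fell in PH against MEF, and 6 fell and 0 rose in the lines against PH (9 at an unadjusted p under 0.05). Among the genes that passed, the widest PH minus MEF differences were those of Foxa1 (4.33), the bile acid receptor Nr1h4 (3.79), Foxa2 (3.28) and Nr5a2 (2.79), and the same 4 genes stood at -3.98, -3.64, -2.57 and -2.60 in the lines against PH. Of the transduced factors, Hnf4a, given to all 3 lines, read 6.04 in 4a3, 9.59 in 4a3CK and 5.505 in 4a1CK, against 9.48 to 9.78 in PH and 5.65 and 5.62 in MEFs. Hnf4a passed in no comparison, with a PH minus MEF difference of 3.97 (limma adjusted p = 0.0585). The spread shared by the groups took in the lines, whose SD for Hnf4a was 2.22, against 0.155 for PH and 0.022 for MEFs. Foxa3 read 3.94 in 4a3 and 3.99 in 4a3CK, both transduced with it, and Foxa1 read 4.01 in 4a1CK, transduced with it. Whether these probe sets lie within the viral transcripts was not tested. Atf5, a bZIP factor of liver stress responses, also fell in the lines against PH (-3.69). In the lines against MEF 0 rose and 2 fell, Atf5 (-2.81) and Tbx3 (-1.41), with 3 at an unadjusted p under 0.05. The list median was 1.28 for PH minus MEF, 0.25 for iHep minus MEF and -1.11 for iHep minus PH.

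Known targets were counted for each factor, on lists that overlap and that other factors also control. Of 22 C/EBP targets 9 rose in PH against MEF, with Alb (7.84), Trf (7.78), Serpina1a (7.77) and Ttr (6.87) at the top. With the 3 lines as 1 group, 0 of 22 passed as higher than MEF in limma (4 at an unadjusted p under 0.05). Against PH 7 fell, led by Alb (-6.20), Ttr (-6.14) and the acute phase proteins Saa2 (-5.14) and Saa1 (-4.55). Single lines differed in the 4 top genes. Trf read 8.21, 11.68 and 4.58 in 4a3, 4a3CK and 4a1CK, against 4.48 and 4.90 in MEF 1 and 2. Serpina1a read 9.63, 7.38 and 3.06, against 2.98 and 3.44. Alb read 9.30 in 4a3 and exceeded neither MEF in 4a3CK or 4a1CK. Ttr lay above both MEFs in every line, at 4.66 to 5.96. Of 9 Creb3l3 targets 4 rose in PH, namely hepcidin (Hamp, 5.73), Apoc2 (5.12) and the pentraxins Apcs (4.04) and Crp (3.17), although Creb3l3 itself did not pass. Of those, Hamp (-5.49), Apcs (-4.04) and Crp (-3.16) fell in the lines against PH, and 0 of the 9 passed in the lines against MEF (3 at an unadjusted p under 0.05).

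Of 9 targets of Onecut1 and Hhex 3 rose in PH and 3 fell in the lines against PH: Ttr, Foxa2 and Onecut2. None of the 9 passed in the lines against MEF (2 at an unadjusted p under 0.05). Of 12 Gata targets, Gata4 itself among them, 2 rose in PH, Afp (6.96) and Apoa1 (5.22), and Dab2, an endocytic adaptor, fell (-2.41). Apoa1 was the 1 Gata target that rose in the lines against MEF (7.16), and 0 passed between lines and PH in limma (5 at an unadjusted p under 0.05). The median difference for iHep minus PH was -1.92 for C/EBP targets, -0.67 for Creb3l3 targets, -0.34 for Onecut1 and Hhex targets and -0.17 for Gata targets, beside -0.09 for all genes.

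The genes most like each factor over the 8 arrays were found by Pearson correlation among genes whose SD was at least 50% of the factor's, leaving out provisional gene names. For Hhex they were Zfp809 (r = 0.996), Akr1c13 (0.996), Onecut1 (0.995) and Mst1 (0.995), and for Onecut1 they were Shb (0.996), Hhex (0.995), vitronectin (Vtn, 0.995) and Mst1 (0.994). Vtn, a plasma adhesion protein, read 3.79, 3.58 and 3.66 in 4a3, 4a3CK and 4a1CK, 10.38, 10.08 and 10.19 in PH, and 3.29 and 3.42 in MEFs. For Cebpa they were Sephs2 (0.995), Prkaa2 (0.992), St6gal1 (0.988) and Sorbs2 (0.987), and for Prox1 Sorbs2 (0.988), Nedd4l (0.983), Serpina1c (0.980) and Apof (0.977). For Gata6 they were Rhpn2 (0.964), Taf4 (0.964), Map3k1 (0.961) and Serinc5 (0.959).

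For Cebpb the closest were Cpe (0.944), Lrig1 (0.927), Ms4a4d (0.879) and fibronectin (Fn1, 0.877). Fn1 read 11.45, 9.71 and 11.47 in 4a3, 4a3CK and 4a1CK, 11.89, 11.91 and 12.23 in PH, and 11.63 and 11.24 in MEFs, so the low array was again 4a3CK. The closest genes to Gata4 were Rnf112 (0.995), Baat (0.994), Sult1d1 (0.994) and Rundc3a (0.994), and to Creb3l3 they were Klrk1 (0.986), Zfp937 (0.980), Epdr1 (0.980) and Lrrc3 (0.978). All 8 of these read highest in PH 3, the array with the raised level, as did every gene named above as closest to Cebpa or Prox1. These correlations describe 8 arrays in 3 groups and carry no test.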

How the data were processed

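RNA of the 8 samples was hybridized to Affymetrix perfect-match arrays, 1 per sample. Expression was deposited as a log2 value for every probe set, which the authors obtained by RMA in Partek, per the submitters' processing notes. Which arrays were normalized together is not stated. Of 45141 probe sets, 104 were controls, 28898 carried 1 gene symbol, 551 several and 15588 none, in the platform annotation. The brightest probe set with 1 symbol stood for each of 17097 genes.

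The 3 groups were fitted together with limma 3.58.1 (lmFit and eBayes, two-sided, Benjamini-Hochberg adjustment) in R 4.3.3, and the fit was tested on simulated data. Alternatives covered scaling, probe set choice, dim genes, blocks, thresholds and leaving out each array. Genes named by rule were the 8 factors with all their probe sets, their family members and the 4 most correlated genes for each factor. Up to 4 passing genes of each other list were also named. Other genes, among them Fgb, Pecam1, Cdx2, Tff1, Tff3, Gkn1 and Lgals4, fall outside this rule. They are to be read as chosen with their values known. The factors and lists were chosen with earlier results of these data known. Arrays have no depth, and their number limits precision. Tables and plots used Python 3.11.15, pandas 2.3.3 and matplotlib 3.10.9.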

Additional observations from a re-analysis of the deposited data

How the results depend on the processing

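Each difference of the 8 genes was recomputed under up to 22 alternatives, 496 values in all, of which 466 kept direction and call, 22 lost the call, 0 gained one and 8 changed sign, all 8 for differences that had not passed. The number of the 8 genes passing for PH against MEF (5) was 3 at adjusted p under 0.01, 3 with the replicate number as a block, 3 with the numbers crossed in that block, and 3 to 5 when single arrays were left out (3 without MEF 1). MEF and PH share the numbers 1 and 2, and the labels do not say whether these mark shared preparations. The deviations of the numbered arrays correlated at -0.197 over genes, which with so few arrays cannot decide it. Prox1 and Gata6 were the calls lost under both blocks, and all genes passing numbered 768 under the block and 779 with the numbers crossed. For iHep against MEF (1, Gata6) it was 0 at adjusted p under 0.01 and 0 to 1 when arrays were left out (0 without 4a1CK or MEF 1). For iHep against PH (4) it was 3 to 4. A lone remaining MEF array was assumed to vary like the other groups. Between lines, a log2 difference of 1 in place of 2 gave 2 genes for 4a3CK minus 4a3 (Cebpb and Prox1, 1 before) and 1 for 4a1CK minus 4a3 (Prox1, 0 before). Signs turned for Cebpb in PH minus MEF without MEF 2 (-0.33), in iHep minus MEF without 4a3CK (0.94) or MEF 1 (0.33) and in iHep minus PH without 4a3CK (0.49). The ranges without single arrays were -0.33 to 1.23, -1.23 to 0.94 and -1.62 to 0.49. Signs also turned for Gata4 in iHep minus MEF with the submission set as a block (-0.12), and for Gata6 in iHep minus PH with that block (-0.31), without 4a1CK (-0.079) and without PH 2 (-0.03), the range without single arrays being -0.079 to 0.39. The cause was not tested. Over all genes the counts passing were 1000 for PH against MEF, 1103 for the lines against MEF and 1219 for the lines against PH, and in that order became 522, 389 and 476 at adjusted p under 0.01. They ranged from 575 to 1156, 471 to 1874 and 576 to 1806 when arrays were left out. Averaging PH 1 and PH 2 gave 588 for iHep against PH, and quantile normalization without PH 3, chosen after seeing the data like the crossed numbers, gave 1800 for iHep against MEF.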
